A study of Mus musculus with 9 samples.

Results

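The genes described here are 39 genes of macrophages and antigen presentation, chosen by name from a list of macrophage surface proteins, lysozymes, complement C1q chains, signalling adaptors, general leukocyte genes, MHC class II genes and chemokines. They took up 40 of the 52025 gene entries in the deposited tables, because the name Itgam stood for 2 entries. The study used RNA-Seq of juvenile mouse ovaries to follow the initial formation of the follicular antrum, the stage at which fluid first collects between the granulosa cells of the growing follicle. Ovaries came from Kunming mice, an outbred stock, at postnatal day (PD) 14, 15 and 16, and no library had a treatment. There were 9 libraries, 3 for each day, made with the NEBNext Ultra kit from total RNA and sequenced on an Illumina HiSeq platform. The labels give the tissue as ovary but the source as granulosa cells, whereas the methods describe RNA of ovaries. Oocyte markers summed to 1008 to 1472 FPKM in the 9 libraries, theca cell markers to 1138 to 2196 and stromal markers to 464 to 630, beside 2665 to 3510 for granulosa cell markers. All libraries therefore held RNA of several ovarian cell types, and the days are described below as ovaries. Neither the labels nor the methods say whether the libraries of a day came from separate litters, and the p-values measure the spread between these libraries.

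Macrophages are phagocytes that live throughout the ovary, where they clear dying cells of degenerating follicles and, later in life, of corpora lutea. They depend on the growth factor CSF1 and its receptor, and on the transcription factor PU.1. MHC class II proteins are loaded in endosomes with fragments of ingested protein and display them to helper T cells. Resting tissue macrophages carry them at variable levels, dendritic cells and B cells at high levels.

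Expression was measured in FPKM, read fragments divided by exon length and by library depth. This adjusts for length and depth but not for the make-up of each library. The depth, recovered from the steps between low FPKM, was 20.4 to 28.7 M mapped fragments per library. Tests were limited to genes whose mean FPKM exceeded 1 on any day, the study's own limit for an expressed gene. Of the 40 entries, 18 passed and 22 did not, and 17 of these were never above that limit in any library. None was at 0 in every library. By mean FPKM the most abundant were Lyz2, C1qa, C1qb and Csf1, and the least abundant were both Itgam entries, Lyz1, Itgax and Ptprc. The defining macrophage genes Csf1r, Cd68 and the C1q chains were above 1 FPKM in every library, and Adgre1 was at 0.620 to 1.33. Markers of other blood cells were also read: the 8 B cell markers summed to 3.34 to 4.22 FPKM at PD14, 4.03 to 4.62 at PD15 and 4.08 to 4.77 at PD16, with overlap. The 16 T and NK cell markers summed to 2.65 to 3.19 FPKM at PD14, 2.01 to 2.61 at PD15 and 2.22 to 2.55 at PD16, above both later days at PD14. The 9 mast cell and eosinophil markers gave 3.17 to 6.21, 2.63 to 5.29 and 1.49 to 2.28 FPKM, lowest at PD16. Neutrophil markers summed to 0.315 to 8.38 FPKM at PD14, 0.363 to 0.721 at PD15 and 0.451 to 1.42 at PD16, the top value coming from Ltf (7.76 FPKM in PD14 replicate 1), and 2 of the 11, Elane and Ly6g, were at 0 in every library. The 8 dendritic cell markers summed to 11.5 to 12.1 FPKM at PD14, 10.4 to 10.7 at PD15 and 10.2 to 11.9 at PD16. The most abundant of them were Zbtb46, Batf3 and Clec9a, the only 3 of the 8 above the limit for testing.

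**Figure D1:**
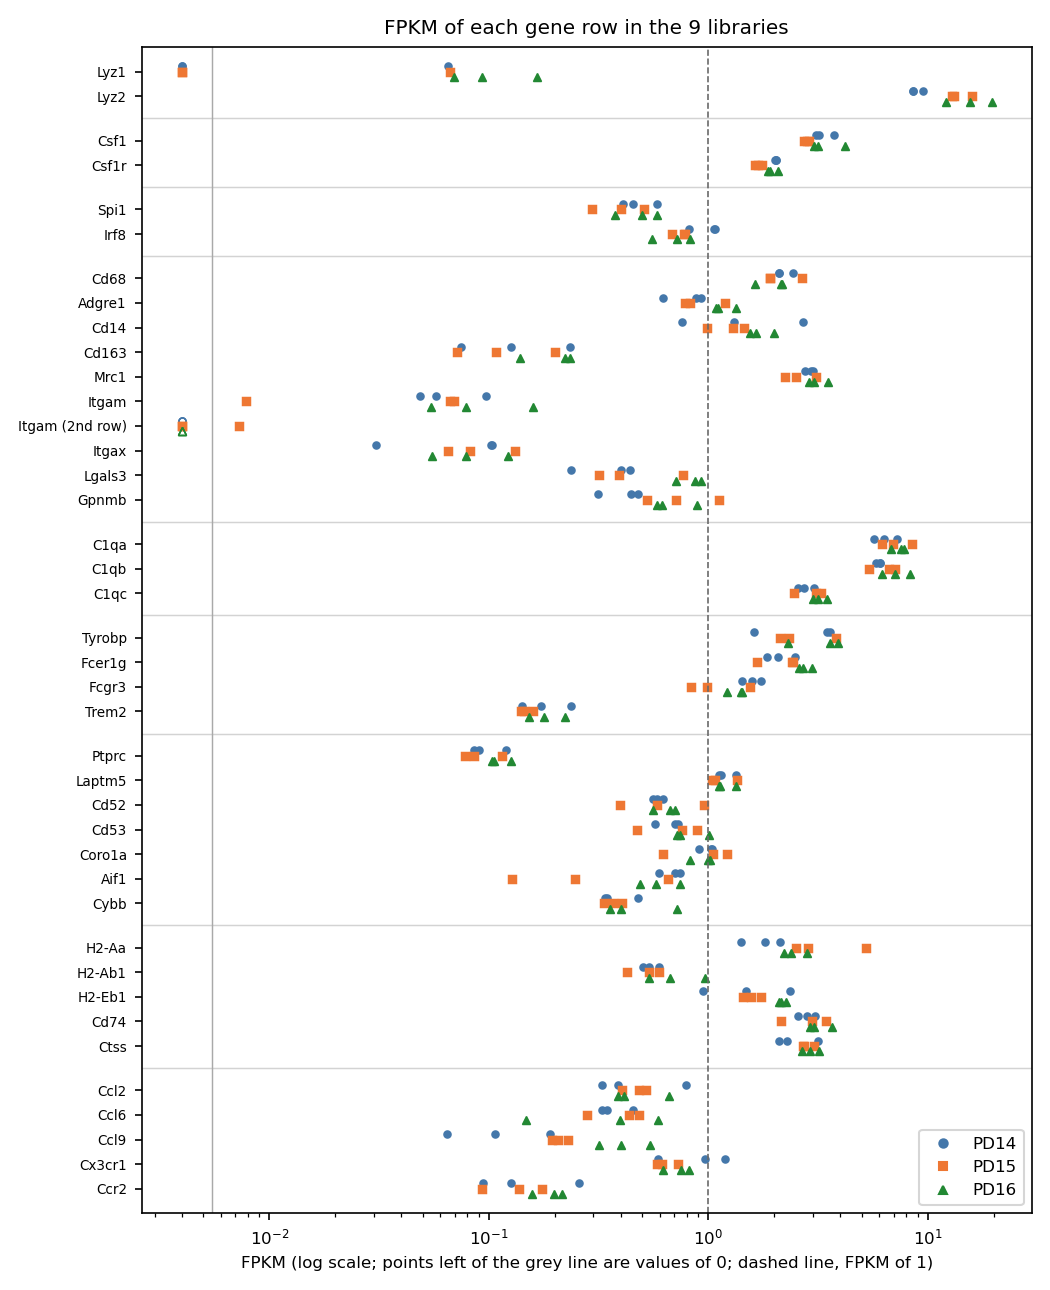
FPKM (log scale) of each of the 40 gene entries in the 9 libraries, grouped by role, with PD14 as circles, PD15 as squares and PD16 as triangles. Most genes overlap between the days. Lyz2 lies near 10 FPKM with its PD14 libraries below all others, and the chemokine Ccl9 is ordered by day without overlap below 1 FPKM.

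Differences between days were tested with limma on log2(FPKM + 1) in 1 fit over all 15495 genes tested, with Benjamini-Hochberg adjustment over all of them. A single gene of the list passed at an adjusted p under 0.05, the lysozyme gene Lyz2, which rose between PD14 and PD16. Between PD14 and PD15 limma called 0 of the 18 (4 at an unadjusted p under 0.05), where 0.678% of all genes tested were called and 14.7% had an unadjusted p under 0.05. Between PD14 and PD16 it called 1 of the 18 (1 unadjusted), beside 4.25% of all genes tested (22.8% unadjusted). Between PD15 and PD16 it called 0 of the 18 (0 unadjusted), beside 0.729% of all genes (14.1% unadjusted). In limma's F test over the 3 days, 1 of the 18 was called, again Lyz2 (adjusted p = 0.047), beside 3.03% of all genes. That call was lost in 12 of 15 alternatives, among them no filter (0.13), no trend (0.0617) and the replicate block (0.0675). In bulk RNA, fewer cells of a type and less RNA per cell cannot be told apart, and this holds for every level given here.

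Lyz2 encodes lysozyme M, an enzyme that cuts bacterial cell walls and is made by macrophages, monocytes and neutrophils. Its FPKM was 9.49, 8.62 and 8.62 in the PD14 libraries, 13.2, 13.0 and 15.9 at PD15, and 19.6, 12.2 and 15.7 at PD16. All 6 later libraries lay above all 3 of PD14, while PD15 and PD16 overlapped. Day means were 8.91 ± 0.502, 14.0 ± 1.63 and 15.8 ± 3.70 FPKM (SD, n = 3 each). The difference between PD16 and PD14 was 0.74 ± 0.14 (SE) on the log2(FPKM + 1) scale, with an adjusted p of 0.0286 by limma. Between PD15 and PD14 it was 0.60 ± 0.14, with an adjusted p of 0.11 by limma (0.0548 to 0.258 over the alternatives), and between PD16 and PD15 it was 0.14 ± 0.14 (adjusted p = 0.727, limma). The call was not stable. With every library kept, the adjusted p by limma was 0.0802 with no filter and 0.0667 with no filter and a pseudocount of 0.1. It was 0.0524 with only the libraries of these 2 days. The adjusted p by limma was 0.0665, 0.0648 and 0.0993 without PD14 replicate 1, 2 or 3, 0.0699 without PD16 replicate 1 and 0.0623 without PD16 replicate 3, and 0.0131 to 0.043 without any of the other 4. Neutrophils also make this lysozyme, and their summed markers, 0.451 to 1.42 FPKM at PD16 and 0.315 to 8.38 at PD14, overlapped between these days.

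The mouse has a second lysozyme gene beside it, Lyz1, best known from Paneth cells of the intestine. In GRCm38 (the mm10 build that the submitters' processing notes name), Lyz2 (ENSMUSG00000069516) lies at chr10:117277331-117282321 and Lyz1 (ENSMUSG00000069515) at chr10:117287797-117292868, both on the minus strand. Lyz1 was at 0, 0.0655 and 0 FPKM at PD14, 0, 0.0665 and 0 at PD15, and 0.166, 0.0698 and 0.0934 at PD16, which is 0 to 5 fragments per library. The summed lysozyme level thus came almost wholly from Lyz2. Both genes share 50-base stretches: 195 of the 1267 in Lyz2 transcripts (15.4%) and 195 of the 1214 in Lyz1 (16.1%) occur in the other gene, so that some reads could be assigned to either copy. The stretches from 250 to 51 bases before their RefSeq start sites (GRCm38.p6, minus strand, chr10:117282323-117282522 for Lyz2 and chr10:117292919-117293118 for Lyz1) are shown because these copies with alike upstream sequence differed so far in level. Capitals mark ACTTCCT, the reverse complement of AGGAAGT, a core motif of PU.1.

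Lyz2: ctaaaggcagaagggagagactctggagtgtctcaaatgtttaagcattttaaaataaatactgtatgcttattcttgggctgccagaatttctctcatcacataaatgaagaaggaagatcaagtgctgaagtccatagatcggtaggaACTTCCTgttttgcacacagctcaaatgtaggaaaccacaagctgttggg
Lyz1: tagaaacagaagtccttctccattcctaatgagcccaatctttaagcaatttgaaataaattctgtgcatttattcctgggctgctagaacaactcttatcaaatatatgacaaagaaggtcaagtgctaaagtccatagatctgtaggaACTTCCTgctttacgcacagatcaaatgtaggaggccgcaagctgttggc

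These windows were identical at 155 of 210 aligned columns (73.8%), and the motif starts 100 bases before the start site in both. Searched on both strands in the 250 bases before each start, AGGAAGT occurred in 7.69% of all 32851 RefSeq mouse promoters. Among the 29 genes of the list with a RefSeq promoter, it occurred in C1qb, C1qc, Ccl6, Lyz1, Lyz2, Mrc1 and Ptprc. A match describes letters and not a bound site, and Lyz1 and Lyz2 both carry it at very different levels.

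**Figure D2:**
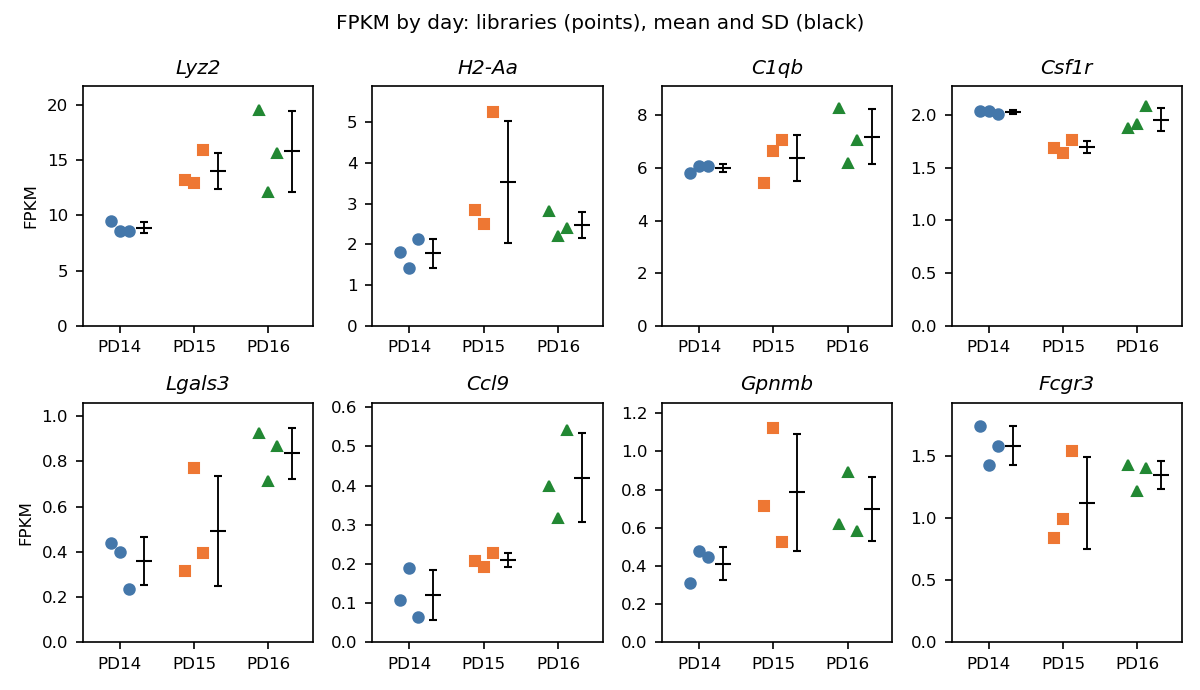
FPKM of 8 genes by day, from 0, with each library as a point and the mean ± SD (n = 3) in black. The PD14 libraries of Lyz2, H2-Aa, Ccl9 and Gpnmb lie below those of both later days, Lgals3 separates PD16 from PD14, and Csf1r is lowest at PD15.

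CSF1 is the growth factor that keeps macrophages alive, and Csf1r encodes its receptor. Csf1r was 2.04, 2.04 and 2.01 FPKM at PD14, 1.69, 1.64 and 1.76 at PD15 and 1.87, 1.91 and 2.08 at PD16. The PD15 libraries lay below all of the other 6, but the difference was small, -0.17 ± 0.07 on the log2 scale between PD15 and PD14, and did not pass (unadjusted p = 0.046, adjusted p = 0.329, limma). Csf1 was also lowest at PD15, with 3.73, 3.20 and 3.11 FPKM at PD14, 2.74, 2.89 and 2.83 at PD15, and 3.17, 3.04 and 4.21 at PD16. The PD15 libraries of both genes lay below all others, and neither difference passed the test (Csf1, adjusted p = 0.444 by limma). At PD16 both overlapped with PD14. Il34, the other ligand of this receptor, was at 3.36 to 5.21 FPKM over the 9 libraries. Its difference between PD16 and PD14 was -0.26 ± 0.09 on the log2 scale. It did not pass (unadjusted p = 0.0167, adjusted p = 0.126, limma).

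The transcription factors that direct macrophage and dendritic cell development were below the limit of testing. Spi1, which encodes PU.1, was at 0.296 to 0.584 FPKM with all days overlapping. Irf8, needed for monocytes and some dendritic cells, was 0.821, 1.07 and 1.06 FPKM at PD14, 0.685, 0.774 and 0.784 at PD15, and 0.720, 0.824 and 0.557 at PD16. All PD15 libraries lay below those of PD14, while PD16 overlapped with PD14 by a narrow margin. When all genes with any value entered the fit, the difference between PD16 and PD14 was -0.22 ± 0.09 on the log2 scale (adjusted p = 0.337, limma).

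Among the surface and lysosomal proteins, Mrc1 (the mannose receptor CD206), Cd68 (a lysosomal glycoprotein), Cd14 (a co-receptor for bacterial lipopolysaccharide) and Adgre1 (the F4/80 antigen) were tested, and none passed in any comparison. Adgre1 was 0.880, 0.931 and 0.620 FPKM at PD14, 0.787, 0.829 and 1.19 at PD15, and 1.33, 1.11 and 1.09 at PD16. Its PD16 libraries lay above all of PD14. It passed the filter only through PD16, the day on which it was highest, so that its place among the tested genes rests on that level. The difference was 0.27 ± 0.12, with an adjusted p of 0.233 by limma, and 0.355 with no filter. Cd68 went the other way in its means, from 2.22 ± 0.189 at PD14 to 1.99 ± 0.305 at PD16, with all days overlapping. Mrc1 was at 2.25 to 3.53 FPKM in all libraries. Cd14 ranged from 0.764 to 2.70 FPKM within PD14 alone, where replicate 1 was the highest of all 9 libraries and replicate 2 the lowest, and its standard error of 0.23 was exceeded only by that of Tyrobp (0.25). Cd163 (a haemoglobin scavenger receptor) was at 0.0719 to 0.235 FPKM. Itgam (CD11b) and Itgax (CD11c), neighbours on chromosome 7, were at 0.00782 to 0.159 and 0.0307 to 0.131 FPKM. The other entry named Itgam, ENSMUSG00000108596, spans an overlapping locus and had 1 fragment in PD15 replicate 3 and none elsewhere.

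Lgals3 and Gpnmb are genes of phagocytes that digest lipid and cell debris, galectin-3 being a sugar-binding protein and GPNMB a glycoprotein of the lysosome. Lgals3 was 0.439, 0.401 and 0.238 FPKM at PD14, 0.317, 0.769 and 0.393 at PD15, and 0.926, 0.711 and 0.867 at PD16. Its PD16 libraries lay above all of PD14, and PD15 fell between them with overlap on both sides. Gpnmb was 0.313, 0.477 and 0.445 FPKM at PD14, 0.712, 1.12 and 0.524 at PD15, and 0.619, 0.893 and 0.585 at PD16, so that both later days lay above PD14. These levels rested on 9 to 41 fragments per library for Lgals3 and 50 to 174 for Gpnmb. In the fit without a filter the difference between PD16 and PD14 was 0.43 ± 0.12 for Lgals3 (adjusted p = 0.162, limma) and 0.26 ± 0.13 for Gpnmb (adjusted p = 0.429, limma). Neither passed. Trem2, a lipid receptor often measured with them, was at 0.141 to 0.238 FPKM and overlapped between all days.

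C1qa, C1qb and C1qc encode the chains of complement C1q, which macrophages secrete and which tags dying cells for uptake. They lie side by side on chromosome 4, at chr4:136880129-136886187 for C1qb, chr4:136889804-136893065 for C1qc and chr4:136895917-136898803 for C1qa. C1qa was 7.26, 6.33 and 5.71 FPKM at PD14, 6.99, 6.18 and 8.47 at PD15, and 6.78, 7.54 and 7.82 at PD16. C1qb was 5.81, 6.09 and 6.09, then 5.42, 6.64 and 7.07, then 8.30, 6.19 and 7.08 FPKM. C1qc was lower, at 3.02, 2.72 and 2.57, then 2.46, 3.09 and 3.26, then 3.48, 2.99 and 3.18 FPKM. All 3 chains had higher means at each later day, and C1qb alone was without overlap between PD14 and PD16. Their differences between PD16 and PD14 were 0.18 ± 0.11, 0.22 ± 0.11 and 0.16 ± 0.10 on the log2 scale, with adjusted p of 0.379, 0.258 and 0.351 by limma, and none passed.

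Tyrobp (DAP12) and Fcer1g (the Fc receptor gamma chain) are membrane adaptors that pass signals from many myeloid receptors, and Fcgr3 encodes a receptor for antibody complexes. Fcer1g was 2.47, 2.08 and 1.85 FPKM at PD14, 1.66, 2.40 and 2.43 at PD15, and 2.59, 2.97 and 2.70 at PD16, above all of the other 6 libraries. The difference between PD16 and PD14 was 0.26 ± 0.12 (unadjusted p = 0.0518, adjusted p = 0.222, limma). Fcgr3 was lower than PD14 in both later day means, with 1.74, 1.43 and 1.58 FPKM at PD14, 0.837, 0.992 and 1.54 at PD15, and 1.43, 1.22 and 1.40 at PD16. The lowest 2 values were both from PD15, the third PD15 library lay among those of PD14, and the difference of -0.30 ± 0.13 between PD15 and PD14 did not pass (unadjusted p = 0.0466, adjusted p = 0.33, limma). Tyrobp was between 1.61 and 3.90 FPKM, each day spanning most of that range.

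Of the genes that mark leukocytes in general, Laptm5 (a lysosomal protein of blood cells) was the only one tested, at 1.04 to 1.35 FPKM, with no comparison beyond 0.03 in either direction on the log2 scale. Ptprc (CD45), the common leukocyte phosphatase, was at 0.0779 to 0.127 FPKM. Cd52 and Cd53, a pair of small surface proteins, were at 0.397 to 0.956 and 0.474 to 1.01 FPKM, Coro1a (an actin regulator) at 0.621 to 1.21 and Cybb (the NADPH oxidase subunit gp91phox) at 0.336 to 0.723. Aif1 (IBA1, a marker of macrophages and microglia) was at 0.746, 0.594 and 0.705 FPKM at PD14, 0.128, 0.247 and 0.659 at PD15, and 0.575, 0.748 and 0.488 at PD16. Its lowest library, PD15 replicate 1, held 5 fragments, and no pair of days was free of overlap. None of these 7 genes separated any pair of days.

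MHC class II molecules pair an alpha with a beta chain. H2-Aa and H2-Ab1 encode the chains of the A molecule and H2-Eb1 the beta chain of the E molecule, Cd74 encodes the invariant chain that guards the groove, and Ctss encodes cathepsin S, the protease that removes it. H2-Aa was 1.81, 1.41 and 2.12 FPKM at PD14, 2.85, 2.51 and 5.26 at PD15, and 2.82, 2.21 and 2.39 at PD16. All libraries of both later days lay above PD14, and PD15 replicate 3 stood well above the rest. The difference between PD15 and PD14 was 0.67 ± 0.20 on the log2 scale and did not pass (unadjusted p = 0.00822, adjusted p = 0.169, limma), and it was 0.41 without PD15 replicate 3. Between PD16 and PD14 it was 0.33 ± 0.20 (adjusted p = 0.366, limma).

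The levels of the other class II genes were ordered differently. H2-Ab1, the partner chain, was 0.598, 0.506 and 0.540 FPKM at PD14, 0.600, 0.539 and 0.425 at PD15, and 0.539, 0.969 and 0.672 at PD16, with PD15 replicate 3, the highest library for H2-Aa, the lowest for H2-Ab1. H2-Eb1 was 1.48, 0.944 and 2.36 FPKM at PD14, 1.56, 1.74 and 1.44 at PD15, and 2.09, 2.16 and 2.26 at PD16, where PD16 lay above PD15 but inside the range of PD14. Cd74 was at 2.15 to 3.65 FPKM and Ctss at 2.10 to 3.18, with all days overlapping. MHC genes differ in sequence between mouse haplotypes, the stock is outbred, and the reference is that of a single inbred strain. H2-Ea-ps, the alpha chain locus of the E molecule that the reference annotates as a pseudogene, here named after its values were seen, was 0.535, 0.845 and 0.501 FPKM at PD14, listed at 0 in all 3 PD15 libraries, and 0.122, 0.0642 and 0.0573 at PD16. Any part of haplotype in the H2-Aa values was not tested.

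The upstream sequences of H2-Aa and H2-Eb1 are shown because class II genes are known to share a promoter module that ends in a Y box, which binds the factor NF-Y. They hold the 120 bases before the RefSeq start (GRCm38.p6), at chr17:34287824-34287943 on the minus strand for H2-Aa and chr17:34305747-34305866 on the plus strand for H2-Eb1, with the Y box CTGATTGG in capitals.

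H2-Aa: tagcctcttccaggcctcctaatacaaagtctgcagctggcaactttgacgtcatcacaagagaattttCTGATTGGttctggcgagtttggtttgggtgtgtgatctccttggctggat
H2-Eb1: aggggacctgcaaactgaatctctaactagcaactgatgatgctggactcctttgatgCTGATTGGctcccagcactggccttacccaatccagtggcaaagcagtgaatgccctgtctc

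The box begins 51 bases before the start in H2-Aa and 62 bases before it in H2-Eb1. On both strands of the 250 bases before the start, CTGATTGG occurred in 3.83% of all RefSeq promoters, and within the list in H2-Aa, H2-Eb1 and Irf8. These genes shared the letters but not the order of their levels over the days, since the highest day mean was that of PD15 for H2-Aa, PD16 for H2-Eb1 and PD14 for Irf8.

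Chemokines are small secreted proteins that draw leukocytes along a gradient. Ccl9, a ligand of CCR1, was 0.107, 0.190 and 0.0645 FPKM at PD14, 0.206, 0.193 and 0.229 at PD15, and 0.400, 0.318 and 0.542 at PD16. It was the only gene of the list whose 3 days were free of overlap in order of age, although PD15 exceeded PD14 narrowly and the libraries held 4 to 42 fragments. Without a filter, the difference between PD16 and PD14 was 0.34 ± 0.07 on the log2(FPKM + 1) scale and 1.25 ± 0.29 with a pseudocount of 0.1, with adjusted p of 0.0721 and 0.0987 by limma, so that it did not pass. Ccl6, its close neighbour on chromosome 11 (chr11:83587882-83593087, beside chr11:83572919-83578636 for Ccl9), was at 0.147 to 0.591 FPKM and showed no such order, both extremes falling in PD16. Ccl2, which recruits monocytes, was at 0.327 to 0.789 FPKM, and its receptor gene Ccr2 at 0.0930 to 0.257. Cx3cr1, the fractalkine receptor of resident macrophages, was at 1.20, 0.965 and 0.588 FPKM at PD14 and 0.587 to 0.821 at the later days, with overlap.

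**Figure D3:**
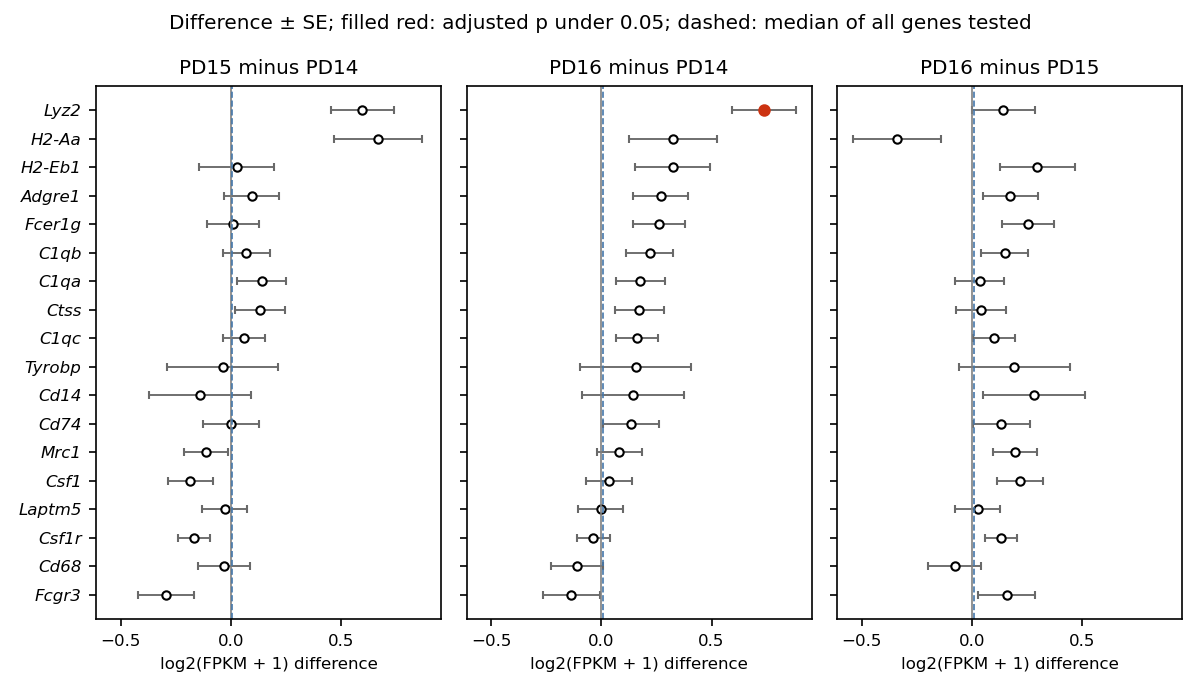
Differences of the 18 tested genes on the log2(FPKM + 1) scale, with SE, for PD15 minus PD14, PD16 minus PD14 and PD16 minus PD15. Filled red marks an adjusted p under 0.05 (Lyz2 in the middle panel) and the dashed line is the median of all genes tested. Most points of the middle and right panels lie to the right of 0 within about 0.3.

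The 18 tested genes were also counted by sign, without a test, since they were chosen with results known. Between PD14 and PD16, 14 of the 18 tested genes had a higher mean log2 value at PD16, beside 52.2% of all genes tested, and the median difference was 0.16, beside 0.01 for all genes. Between PD15 and PD16 16 of the 18 were higher, beside 53.1%, with a median of 0.15 beside 0.01. Between PD14 and PD15 9 of the 18 were higher, beside 51.9%, and the medians were 0.00 and 0.01. Adgre1, higher in all of these, passed the filter through PD16 alone, and without it the counts were 13, 15 and 8 of 17. With no filter, over all entries of the list, the median was 0.0745 between PD14 and PD16 and 0.0951 between PD15 and PD16, and 0.2031 and 0.1925 with a pseudocount of 0.1 as well. These comparisons share libraries. PD15 replicate 1 was the lowest of all 9 libraries for 14 of the 40 entries and the highest for 0. Without that library the median was 0.10 between PD15 and PD14 and 0.06 between PD16 and PD15. At the other end, PD16 replicate 1 was the highest library for 10 entries.

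A pair of days was free of overlap for few genes of the list, and the shares of all genes stand beside the counts. Of the 18 tested genes, 4 were free of overlap between PD14 and PD15, beside 20.6% of all genes tested. Lyz2 and H2-Aa were higher at PD15 (all genes, 10.4%) and Csf1 and Csf1r lower (10.2%). Between PD14 and PD16 it was 6, beside 28.5%. Adgre1, C1qb, Fcer1g, H2-Aa and Lyz2 were higher at PD16 (all genes, 15.0%), and Fcgr3 was lower (13.5%) by a margin smaller than the digits printed above. Adgre1 passed the filter only through PD16, so its place in this count rests on that level. Between PD15 and PD16 it was 5, beside 19.6%, and Cd14, Csf1, Csf1r, Fcer1g and H2-Eb1 were all higher at PD16 (all genes, 9.85%). Of the 18 entries below the filter with a mean FPKM above 0.1, 3 were free of overlap between PD14 and PD15 beside 13.3% of all genes in that range. Ccl9 and Gpnmb were higher (6.36%) and Irf8 lower (6.96%). Between PD14 and PD16 there were 3, beside 14.0%, and Ccl9, Gpnmb and Lgals3 were all higher (5.46%). Between PD15 and PD16 there was 1, Ccl9, which was higher, beside 13.4% (5.72% higher).

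**Figure D4:**
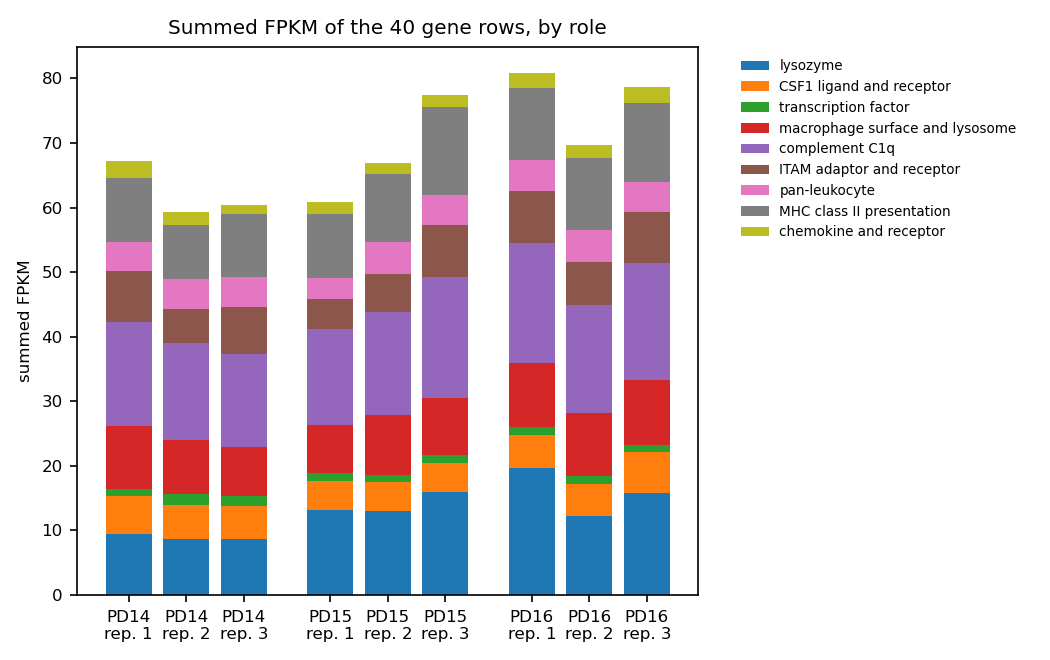
Summed FPKM of the 40 entries in each library, stacked by role from 0. The sum was between 59.3 FPKM (PD14 replicate 2) and 80.8 FPKM (PD16 replicate 1), with the lysozymes the most variable large layer.

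Summed over the 40 entries, the level was 62.3 ± 4.30 FPKM at PD14, 68.4 ± 8.45 at PD15 and 76.4 ± 5.94 at PD16 (SD, n = 3 each). Without Lyz2 the sums were 53.4 ± 3.80, 54.4 ± 7.01 and 60.6 ± 2.81 FPKM. In single libraries the whole sum was 67.2, 59.3 and 60.4 FPKM at PD14, 60.8, 66.9 and 77.5 at PD15, and 80.8, 69.6 and 78.6 at PD16. The PD16 libraries lay above all of PD14, and PD15 overlapped with both. Without Lyz2 the separation of PD16 from PD14 was lost, since PD16 replicate 2 (57.5 FPKM) lay below PD14 replicate 1 (57.8 FPKM). C1q made up 14.4 to 18.8 FPKM of the sum and the class II genes 8.23 to 13.6. Red blood cell markers, a measure of blood in the tissue, summed to 105 to 147 FPKM at PD14, 46.4 to 63.2 at PD15 and 60.9 to 116 at PD16. They were lower at PD15, the day on which Lyz2 and H2-Aa were already above PD14 and Csf1r and Csf1 were lowest. Mast cell and T and NK cell markers were lower at PD16 than at PD14. B cell markers went with the summed level in their ranges (3.34 to 4.22 FPKM at PD14, 4.08 to 4.77 at PD16), and both of the 2 tested had higher values at PD16, with a median difference of 0.26 and 0 called by limma (1 at an unadjusted p under 0.05). Oocyte markers were lower at PD16 than at PD15 in 10 of 10 (median -0.31, 2 called by limma). Smooth muscle markers were higher at PD16 in 5 of 5, against PD15 (median 0.20, 0 called) and against PD14 (0.20, 1 called). Endothelial markers (7 of 7, median -0.17, 1 called) and stromal markers (6 of 6, -0.10, 0 called) were lower at PD16 than at PD14. Of all genes tested, 4.25% were called between PD14 and PD16 and 0.729% between PD15 and PD16. The part of all these cell types in the levels was not tested.

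Related genes outside the list were counted in the same way. Of 51 entries for other macrophage genes, 21 were tested, and Unc93b1, which carries Toll-like receptors to endosomes, was the only one called, lower at PD16 than at PD14 (1 of 21, where 4.25% of all genes tested were called). It was 7.27, 7.07 and 7.85 FPKM at PD14, 6.48, 6.63 and 6.20 at PD15, and 5.85, 6.25 and 5.87 at PD16. Each later day lay below PD14 without overlap, by -0.26 ± 0.06 at PD16 on the log2 scale (adjusted p = 0.0401 by limma). This call was lost (adjusted p of 0.0576 to 0.13 by limma) without any 1 library other than PD15 replicate 3, where it was 0.045. In these 21 genes 9 were higher and 12 lower at PD16 than at PD14, beside 52.2% of all genes higher, with a median of -0.04 beside 0.01. The most abundant were Cyba (a subunit of the NADPH oxidase) and Csf2ra (the GM-CSF receptor), at means of 24.4 and 11.7 FPKM. At an unadjusted p under 0.05 by limma there were 5 of the 21 between PD14 and PD16, beside 22.8% of all genes tested. Of these, Unc93b1, Il10ra, Cyba and Csf2rb were lower at PD16, and Lyve1 was higher. Il10ra, Csf2rb and Lyve1 are named after their values were seen. For Il10ra the difference was -0.33 ± 0.10 on the log2 scale (adjusted p = 0.103 by limma). Lyve1 marks a set of tissue macrophages, and lymphatic vessels also express it. It was 4.73, 5.05 and 5.42 FPKM at PD14, 4.72, 4.97 and 6.21 at PD15, and 7.95, 5.49 and 7.99 at PD16. Its PD16 libraries lay above all of PD14, by 0.41 ± 0.13 on the log2 scale. That difference did not pass (adjusted p = 0.111 by limma, 0.0399 to 0.292 with a library left out).

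In the antigen presentation pathways limma called none of the genes tested. Of 20 further class II pathway entries 9 were tested, with 0 called in each comparison (2, 4 and 2 at an unadjusted p under 0.05 for PD15 against PD14, PD16 against PD14 and PD16 against PD15). Of all genes tested, 0.678%, 4.25% and 0.729% were called in these comparisons, and 14.7%, 22.8% and 14.1% had such an unadjusted p. By sign, 1 of the 9 was higher and 8 lower at PD15 than at PD14 (median -0.10). At PD16, 3 were higher and 6 lower than at PD14 (median -0.06), and 6 higher and 3 lower than at PD15 (0.03). Of all genes tested, 51.9%, 52.2% and 53.1% were higher in these comparisons. H2-Ea-ps, below the filter, was called when no filter was used (adjusted p by limma of 0.0403 for PD15 against PD14 and 0.0315 for PD16 against PD14, lower at each later day). The most abundant were the lysosomal proteases Ctsl, Ctsb and Ctsd, at means of 214.9, 64.0 and 63.9 FPKM, which follicle cells also make. Of 18 class I entries 17 were tested, with 0 called in each comparison (2, 6 and 3 of 17 unadjusted), beside the same shares of all genes. In the same order of comparisons, 9, 12 and 13 of the 17 were higher, with medians of 0.06, 0.06 and 0.08. Calr and Pdia3, general chaperones of the endoplasmic reticulum, and B2m, the light chain of class I, led with means of 377.4, 305.4 and 171.2 FPKM. The class I heavy chain genes H2-D1 and H2-K1 are named after their values were seen, and they differ between haplotypes as the class II genes do. H2-D1 was 19.2, 15.0 and 28.1 FPKM at PD14, 26.3, 33.1 and 31.8 at PD15, and 32.9, 31.9 and 34.4 at PD16. Its PD16 libraries lay above all of PD14, by 0.69 ± 0.18 on the log2 scale, with an adjusted p of 0.0659 by limma. H2-K1 was 26.6, 24.4 and 30.2 FPKM at PD14, 15.4, 26.7 and 9.80 at PD15, and 25.4, 31.0 and 27.5 at PD16. Its lowest values were thus both from PD15, where H2-D1 was not low, and its differences of -0.72 ± 0.27 between PD15 and PD14 and 0.77 ± 0.27 between PD16 and PD15 did not pass (adjusted p of 0.264 and 0.238, limma).

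Of 24 other chemokine and receptor entries 8 were tested. Cxcl1, a chemokine that draws neutrophils, rose between PD14 and PD16, from 0.392, 0.552 and 0.288 FPKM through 0.649, 1.03 and 0.743 at PD15 to 1.99, 1.43 and 2.20. Its 3 days were free of overlap in order of age, as those of Ccl9 were. The difference between PD16 and PD14 was 1.02 ± 0.14 on the log2(FPKM + 1) scale (adjusted p = 0.0106 by limma). Cxcl1 passed the filter only through PD16, where it was highest, and with no filter the adjusted p was 0.0335 by limma. The adjusted p by limma was 0.0512 without PD16 replicate 1 and 0.0131 to 0.0452 without any other library. The remaining 7 were not called (1 of 8, beside 4.25% of all genes). In the other 2 comparisons 0 of 8 were called (0.678% and 0.729%). For PD15 against PD14, 5 of the 8 had an unadjusted p under 0.05 by limma (14.7% of all genes). It was 3 each for PD16 against PD14 and PD16 against PD15 (22.8% and 14.1%). Between PD14 and PD15, 6 of the 8 were lower and 2 higher, with a median of -0.23 beside 0.01 for all genes. All 24 entries summed to 88.3 to 113 FPKM at PD14, 71.3 to 80.7 at PD15 and 86.8 to 99.3 at PD16. The most abundant were Cxcl14, Cxcl12 (the ligand of CXCR4) and Il34, at means of 58.6, 15.3 and 4.04 FPKM.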

How the data were processed

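Total RNA of ovaries from Kunming mice at PD14, PD15 and PD16 was sequenced by NOVOGENE, with 3 libraries for each day. The authors deposited FPKM for each library, in a table of 52025 genes. The submitters' processing notes name HISAT2 2.0.5 and mm10, while the counting tool and annotation are not given in the sources used here. FPKM were used as deposited, as log2(FPKM + 1). Depth came from the step of a single fragment, with exon lengths of GENCODE M21: 95.1% to 96.0% of low values were whole within 0.05 fragments.

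The 15495 genes whose mean FPKM exceeded 1 on any day entered limma 3.58.1 (intensity trend, R 4.3.3) in 1 fit over 9 libraries, with Benjamini-Hochberg adjustment and a threshold of 0.05. The method was tested on simulated data. Samples were grouped by the day in their labels. Figures and sums used Python 3.11.15, pandas 2.3.3, NumPy 2.4.6 and Matplotlib 3.10.9. Promoters came from RefSeq (GRCm38.p6), and gene positions from GENCODE M21.

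The genes and lists were chosen with earlier results of these data known. Named genes were all 39, genes of the related lists with an adjusted p under 0.05, and the 3 most abundant of each such list. The result of 1 gene under this rule is left out. Others are marked as named after their values were seen, or served as markers. Alternatives were a pseudocount of 0.1, no filter, median-ratio scaling, no trend, a replicate block, only the libraries compared, and each library left out. No filter with a pseudocount of 0.1 and the sums without Lyz2 were added after seeing the data.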

Additional observations from a re-analysis of the deposited data

How the results depend on the processing

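The count of 1 called gene of the list between PD14 and PD16 became 0 with no filter, with no filter and a pseudocount of 0.1, and with only the libraries of the 2 days, and ran from 0 to 1 with a library left out. Over the 3 days the count of 1 became 0 with no filter, with no filter and a pseudocount of 0.1, without a trend and with the replicate block, and ran from 0 to 1 with a library left out; it was 1 only without PD16 replicate 2. Among the related lists, the count of 0 between PD14 and PD15 became 1 with no filter and 1 with no filter and a pseudocount of 0.1 (H2-Ea-ps in both). The count of 2 between PD14 and PD16 became 1 with the replicate block, 1 with only the libraries of the 2 days and 3 without a trend (with Cd83, named after its values were seen), and ran from 0 (without PD16 replicate 1) to 2 with a library left out. With no filter it stayed at 2, with H2-Ea-ps in place of Unc93b1 (adjusted p = 0.0777 by limma). The median difference of the list ran from -0.0474 to 0.0997 for PD15 against PD14, from 0.09 to 0.20 for PD16 against PD14 and from 0.0605 to 0.2254 for PD16 against PD15 with a library left out. Summed FPKM without Lyz2 was 53.4, 54.4 and 60.6 at PD14, PD15 and PD16. The cause of these changes was not tested. Fits of 2 days or with a library left out held fewer samples, and fits with no filter held more genes. Those without a trend or with the replicate block used the same libraries and genes as the main fit. Lyz2 remained higher at PD16 than at PD14 in all 16 alternatives.

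Deviations from the day means correlated at -0.21 to 0.16 between same-numbered libraries, and at -0.20 to 0.21 between differently numbered ones. Replicate numbers thus gave no sign of pairing, and shared litters or batches were not tested. With the replicate block, Lyz2 had an adjusted p of 0.0446 by limma for PD16 against PD14 and 0.0675 in the F test, Unc93b1 had 0.0922 and Cxcl1 0.0399, and 0 genes of the list were called in the other 2 comparisons. Of the 54 differences of tested genes, 18 changed sign in at least 1 alternative, so that the direction of small differences is not fixed by these libraries. At 3 libraries a day and FPKM near 1, changes as small as most of those described cannot be told from the spread, and genes below 0.1 FPKM rest on few fragments.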
